A study of Mus musculus with 30 samples.

Results

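SYN1 cortex tumors were compared with NES hippocampus tumors on Affymetrix Mouse Gene 1.0 ST arrays, which hybridise labelled RNA to probes along each transcript. The comparison used 8 of the 30 arrays of a study of mouse brain tumors. Of these, 4 were of cortex tumors with Cre recombinase under the SYN1 promoter. The other 4 were of hippocampus tumors with Cre under the NES promoter. Whether Cre was injected or carried by the mice is not stated here. Another 4 arrays of normal cortex and 4 of normal hippocampus, with no promoter named, gave the difference between the regions in tissue without tumor. The 8 tumor arrays were chosen by their labels, not by any measured value. All 19938 genes with a single symbol were tested. The labels give no strain, age, time after injection or target allele, and do not say whether arrays came from separate animals, so the spread behind each p-value is that of these arrays and may be technical. The promoter and the labelled region changed together between the tumor groups, so that their parts in a difference cannot be told apart.

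SYN1 encodes synapsin I, a protein of synaptic vesicles in mature neurons, and NES encodes nestin, an intermediate filament of neural stem and progenitor cells. Cre recombinase deletes or turns on genes flanked by its target sites, and a promoter placed before it limits the cells in which this happens. Glioblastomas are often sorted by transcript class. Proneural tumors carry genes of the oligodendrocyte lineage, whereas mesenchymal tumors carry genes of matrix, adhesion and wound response. Bulk tumor RNA also holds RNA of the brain cells that remain around and within the tumor, and in such samples fewer cells of a type and less RNA per cell cannot be told apart.

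The arrays were similar in their general level, with median log2 signals of 7.188 to 7.3 in SYN1 tumors and 7.186 to 7.304 in NES tumors. Background remains in the signal, and a low value is not evidence of absence. NES tumor 1 stood apart from the other NES tumors: its mean correlation with them over genes was 0.946, against 0.967 to 0.976 for NES tumors 2 to 4, 0.964 to 0.973 for the SYN1 tumors and 0.992 to 0.995 for the normal arrays. Counts are therefore also given without NES tumor 1, an array singled out after the data were seen. Leaving it out raised the calls over all genes to 4927. Leaving out NES tumor 2, 3 or 4 or SYN1 tumor 3 or 4 instead left 0 calls, in the lists as well. Normal hippocampus 3 had a higher mean level of mesenchymal glioma genes (8.55) than the other normal hippocampi (7.52 to 7.82).

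The labelled regions were checked against regional markers. Genes typical of hippocampus (15 measured, such as Prox1 of dentate granule cells) averaged 7.34 to 7.69 log2 signal in SYN1 tumors, 7.73 to 8.26 in NES tumors, 8.08 to 8.25 in normal cortex and 9.48 to 9.86 in normal hippocampus. The NES tumors labelled hippocampus thus lay near normal cortex on this list, well below all 4 normal hippocampi. Genes typical of striatal projection neurons, a list written after the values were seen and given without a test, averaged 7.27 to 7.76 in SYN1 tumors and 7.9, 10.08, 10.84 and 9.63 in NES tumors 1 to 4, over 13 measured genes of 15. They averaged 9.05, 9.02, 10.32 and 9.92 in normal cortex 1 to 4 and 8.52 to 8.69 in normal hippocampus. NES tumors 2 to 4 thus lay above every normal hippocampus array on a list of neurons from another region, and normal cortex 3 and 4 above normal cortex 1 and 2. NES tumors 2 to 4 are also the NES arrays that remain in the counts without NES tumor 1. Drd2, the dopamine D2 receptor, had 6.94 to 7.43 in SYN1 tumors and 7.66, 10.28, 11.19 and 9.8 in NES tumors, against 7.73, 7.87, 10.6 and 9.87 in normal cortex and 7.84 to 8.14 in normal hippocampus. What tissue the tumor pieces were cut from is not given beyond the label, and its part in the results was not tested.

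**Figure D1:**
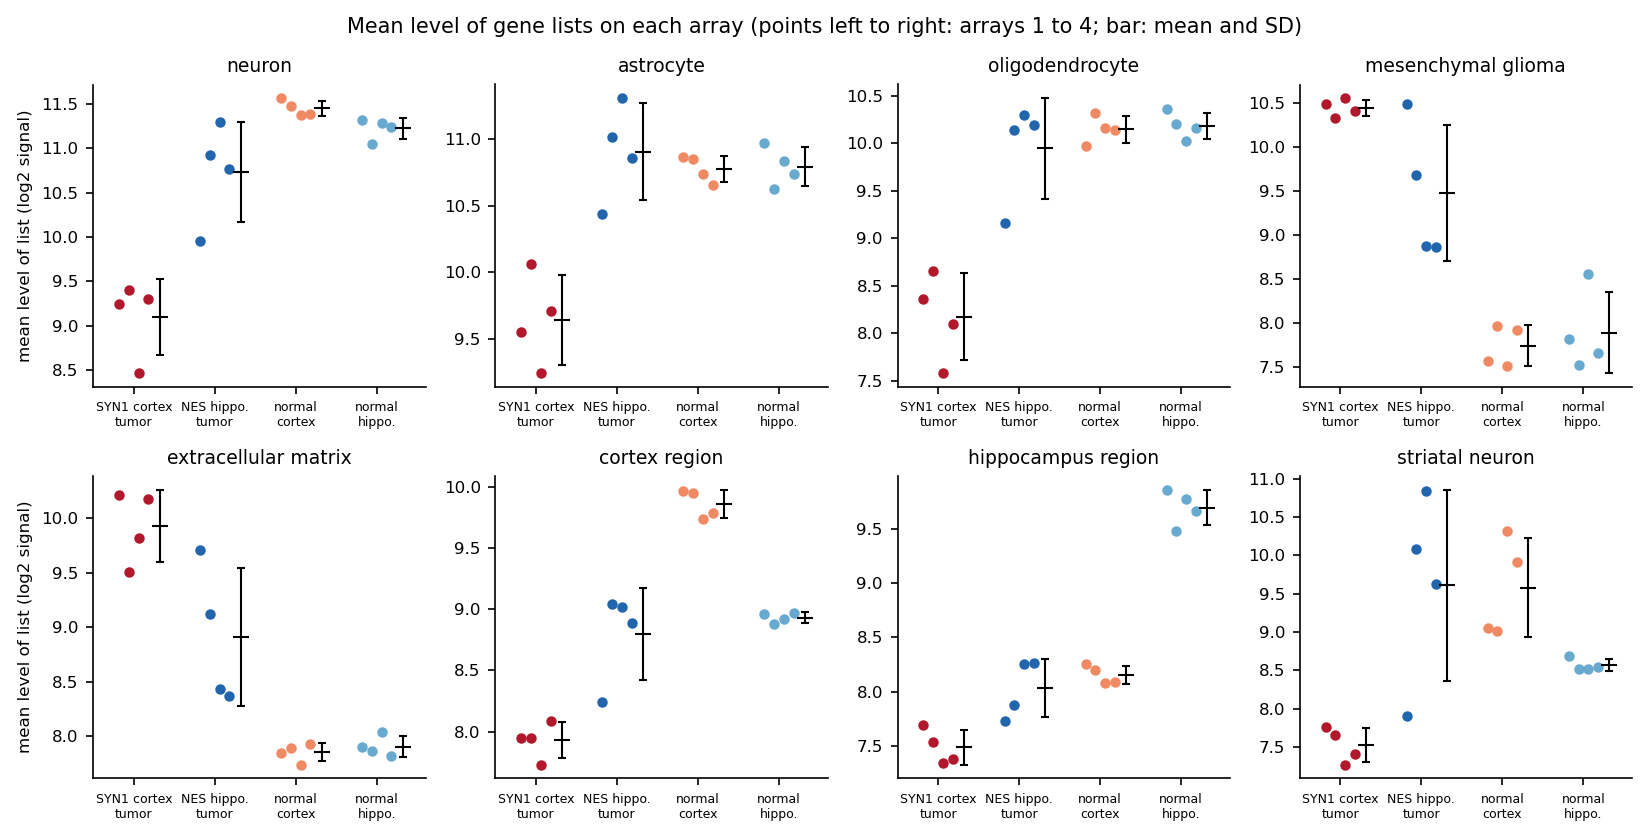
Mean log2 signal of 8 gene lists on each array, in SYN1 cortex tumors, NES hippocampus tumors, normal cortex and normal hippocampus (points, arrays 1 to 4 from left to right; bars, mean and SD of 4 arrays; the vertical axes do not start at 0). SYN1 tumors lie below all other groups for neuron and oligodendrocyte genes, and NES tumor 1 lies between the SYN1 tumors and NES tumors 2 to 4 for most lists. For mesenchymal glioma genes NES tumor 1 (10.48) lies among the SYN1 tumors (10.33 to 10.55).

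Most listed genes of neurons, synapses, astrocytes and myelin were lower in SYN1 cortex tumors than in NES hippocampus tumors, and a smaller set, with matrix, adhesion and decoy receptor genes among it, was higher. In limma, 2361 of 19938 genes passed an adjusted p of 0.05 (11.8%). Of these, 664 were higher in SYN1 tumors (3.33%) and 1697 were lower (8.51%), and 1484 differed by at least 1 on the log2 scale. The 4 SYN1 and 4 NES values did not overlap for 3237 genes (16.2%). The smallest adjusted p of any gene was 0.0254. Leaving out NES tumor 1 raised the count to 4927 of 19938 genes, with 2030 higher and 2897 lower. The list counts given below without NES tumor 1 stand beside these larger counts over all genes. Leaving out NES tumor 2, 3 or 4 or SYN1 tumor 3 or 4 instead left 0 genes at adjusted p under 0.05 in limma (4528 to 5026 genes at unadjusted p under 0.05, smallest adjusted p 0.0664 to 0.0843). Without SYN1 tumor 1 there were 775 calls, and without SYN1 tumor 2 there were 1322. With the spread taken from 26 arrays of the study, 5296 genes were called, among them 2342 of the 2361. Leaving out each of the 8 arrays in that fit gave 3660 to 6718. The 26 include the 8 normal arrays, which spread less (median standard error of a difference 0.087, against 0.165 between the tumors). That fit can therefore understate the spread of the tumors. With the spread of all 30 arrays, 2789 genes were called, among them 1937 of the 2361. All 2361 genes kept their sign in these fits. With the spread of 26 or 30 arrays the group means are unchanged, so no sign could change there. Runs without 1 array share all other tumor arrays with the main fit, so kept signs are weak evidence. The share of calls that were higher in SYN1 tumors was 28.1% as deposited, 51.9% after each array was centred on its median, which moved the median difference of all genes by over 0.1 to 0.16, and 48% after quantile normalization.

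Few of the tumor differences followed the normal regional difference. Normal cortex and normal hippocampus differed in 2768 genes in limma (13.9%), with 1787 higher in cortex (8.96%) and 981 lower (4.92%), and their arrays did not overlap for 3656 genes (18.3%). Of the 2361 genes called between the tumors, 791 were also called between the normal regions, which is 33.5% of the tumor calls and 28.6% of the normal calls. Among these 791, 568 had opposite signs, with 515 lower in SYN1 tumors but higher in normal cortex, and 223 had the same sign. Across genes, the tumor and normal differences correlated at a Pearson r of -0.181 and a Spearman rho of -0.151 (19938 genes, which are not independent). No array is shared between these comparisons. The median standard error of a difference was 0.165 between the tumors and 0.087 between the normal regions.

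The difference between the differences, SYN1 minus NES tumors less normal cortex minus normal hippocampus, passed an adjusted p of 0.05 in limma for 3805 genes (19.1%), of which 1199 were positive (6.01%) and 2606 negative (13.1%). It was called for 2069 of the 2361 tumor calls, or 87.6%. The SYN1 minus NES difference enters this contrast itself, so a high share among the tumor calls was built in. The positive calls depended on single arrays: they numbered 2357 without NES tumor 1, 783 without NES tumor 4 and 763 without normal hippocampus 3. With normal cortex 1 and 2 only, the count was 2075.

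**Figure D2:**
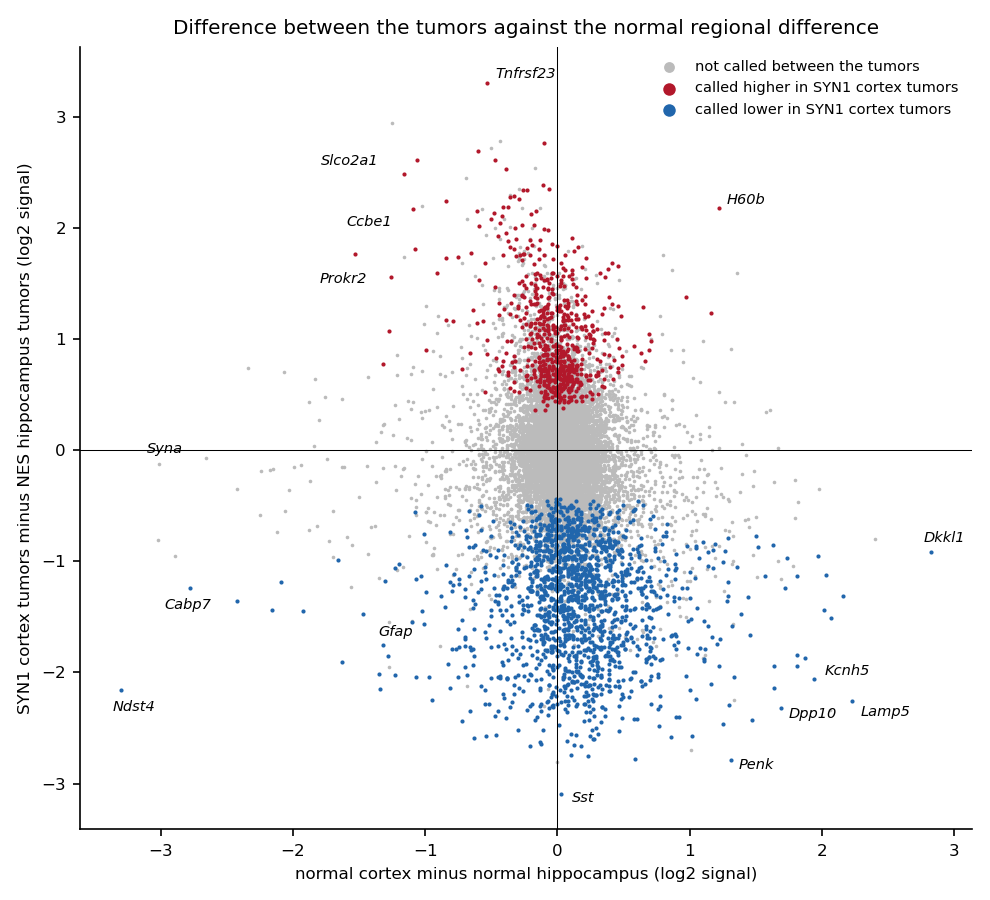
Each point is a gene of the 19938 tested. The vertical axis is the log2 difference of SYN1 cortex tumors minus NES hippocampus tumors and the horizontal axis that of normal cortex minus normal hippocampus. Red and blue points are the 664 genes called higher and the 1697 called lower in SYN1 tumors (limma adjusted p under 0.05), and the widest regional genes, such as Dkkl1, Lamp5 and Ndst4, lie below 0 on the vertical axis whichever region they mark.

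Tnfrsf23 and Tnfrsf22, which encode decoy receptors for the death ligand TRAIL in the mouse, had the largest positive differences among the 12 genes named as higher. Tnfrsf23 had 10.27, 11.84, 12.27 and 10.56 log2 signal in SYN1 tumors, against 9.26, 8.22, 7.04 and 7.2 in NES tumors. The groups did not overlap, and the difference was 3.31 ± 0.58 (SE, limma adjusted p = 0.0254), or 9.9-fold. Normal cortex and hippocampus did not pass the test for it (difference -0.53, limma adjusted p = 0.502), and normal hippocampus 3 had 9.11, against 6.56 to 6.83 in the other normal hippocampi. The excess over the regional difference was 3.84 with that array and 3.23 without it (limma adjusted p = 0.00464 and 0.00645). Tnfrsf22 differed by 2.69 ± 0.456 in the same direction. These are closely related genes, and whether their probes measure the same transcripts was not tested, so the pair may be a single observation.

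Slco2a1, a prostaglandin transporter, had 11.49, 11.1, 11.56 and 11.08 in SYN1 tumors, against 10.36, 8.26, 8.13 and 8.54 in NES tumors. The SYN1 tumors were alike and all above NES tumor 1, itself far above NES tumors 2 to 4. Its difference was 2.49 ± 0.442 (limma adjusted p = 0.0254), and it ran against the normal regions, where cortex was lower by 1.16 (-1.16, limma adjusted p = 2.88e-05). Ccbe1, a secreted protein needed for lymphatic growth, was 2.17 ± 0.433 higher in SYN1 tumors and 1.09 lower in normal cortex (-1.09, limma adjusted p = 1.02e-05).

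Genes of matrix contact and proteolysis were also among the 12. Itga2, the alpha-2 subunit of a collagen-binding integrin, had 10.29, 10.86, 11.15 and 10.6 in SYN1 tumors and 10.22, 8.41, 7.78 and 7.36 in NES tumors, so that SYN1 tumor 1 and NES tumor 1 nearly met. The difference was 2.28 ± 0.539 with NES tumor 1 and 2.88 without it (limma adjusted p = 0.0313 and 0.000537). Mmp9, the gelatinase of type IV collagen, had 9.92, 9.16, 9.82 and 11.65 in SYN1 tumors and 9.15, 7.37, 7.4 and 7.85 in NES tumors, again without overlap but with SYN1 tumor 2 and NES tumor 1 close together. Fbln2, the matrix protein fibulin 2, was 2.19 ± 0.568 higher. The others were Dhrs9, a retinol dehydrogenase (2.53), Prl8a9, a member of the prolactin family (2.34), Dpep2, a membrane dipeptidase (2.29), Pla1a, a phosphatidylserine phospholipase (2.26) and H60b, a ligand of the NKG2D receptor (2.18). H60b was also 1.22 higher in normal cortex than in normal hippocampus (limma adjusted p = 1.49e-05), and its excess over that regional difference was not called (0.96, limma adjusted p = 0.311). Fbln2 lost its called excess with normal cortex 1 and 2 only (2.63, limma adjusted p = 0.0702). All 12 were called between the tumors without NES tumor 1. They were not called without NES tumor 2, 3 or 4 or SYN1 tumor 3 or 4, where 0 genes were called.

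The 12 genes named as lower in SYN1 tumors were led by Sst, the neuropeptide somatostatin of a class of inhibitory interneurons. Sst had 7.83, 8.82, 8.02 and 8.72 in SYN1 tumors and 10.11, 11.43, 12.62 and 11.6 in NES tumors, with no overlap. Its difference was -3.09 ± 0.472 (limma adjusted p = 0.0254), which made it 8.54-fold lower, while normal cortex and normal hippocampus lay at 12.31 to 12.82 and 12.4 to 12.67 (difference 0.03, limma adjusted p = 0.898). Penk, the precursor of enkephalin peptides, had 10.82, 8.5, 8.33 and 10.02 in SYN1 tumors and 11.21, 12.44, 13.12 and 12.06 in NES tumors. SYN1 tumors 1 and 4 were the nearest to the NES tumors, and the groups did not overlap (difference -2.79 ± 0.592, limma adjusted p = 0.0262). In normal cortex Penk had 11.17, 11.41, 12.59 and 12.23, against 10.5 to 10.63 in normal hippocampus, so that all NES tumors exceeded the tissue of their labelled region. Gnal, the olfactory G protein subunit that couples dopamine receptors in the striatum, differed by -2.78 ± 0.52.

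Ntsr2, a neurotensin receptor of astrocytes, had 7.33, 8.49, 7.11 and 7.43 in SYN1 tumors and 8.52, 10.31, 11.37 and 10.73 in NES tumors, with SYN1 tumor 2 and NES tumor 1 nearly equal. Its difference was -2.64 ± 0.561, while its normal regional difference was -0.12 (limma adjusted p = 0.609). The others were Spock3, a testican proteoglycan (-2.75), Tmem130 (-2.74), Ano3, a member of the anoctamin family (-2.66), Rab3c, a GTPase of secretory vesicles (-2.66), Mal2 (-2.65), Neto1, an auxiliary subunit of glutamate receptors (-2.63), Elmod1 (-2.62) and Gabra4, a GABA-A receptor subunit (-2.6). Their normal regional differences lay between -0.21 for Rab3c and 0.28 for Gabra4. Their limma adjusted p between the tumors was 0.0254, or 0.0262 for Ano3, and all were called without NES tumor 1. Like every other gene, they were not called without NES tumor 2, 3 or 4 or SYN1 tumor 3 or 4.

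**Figure D3:**
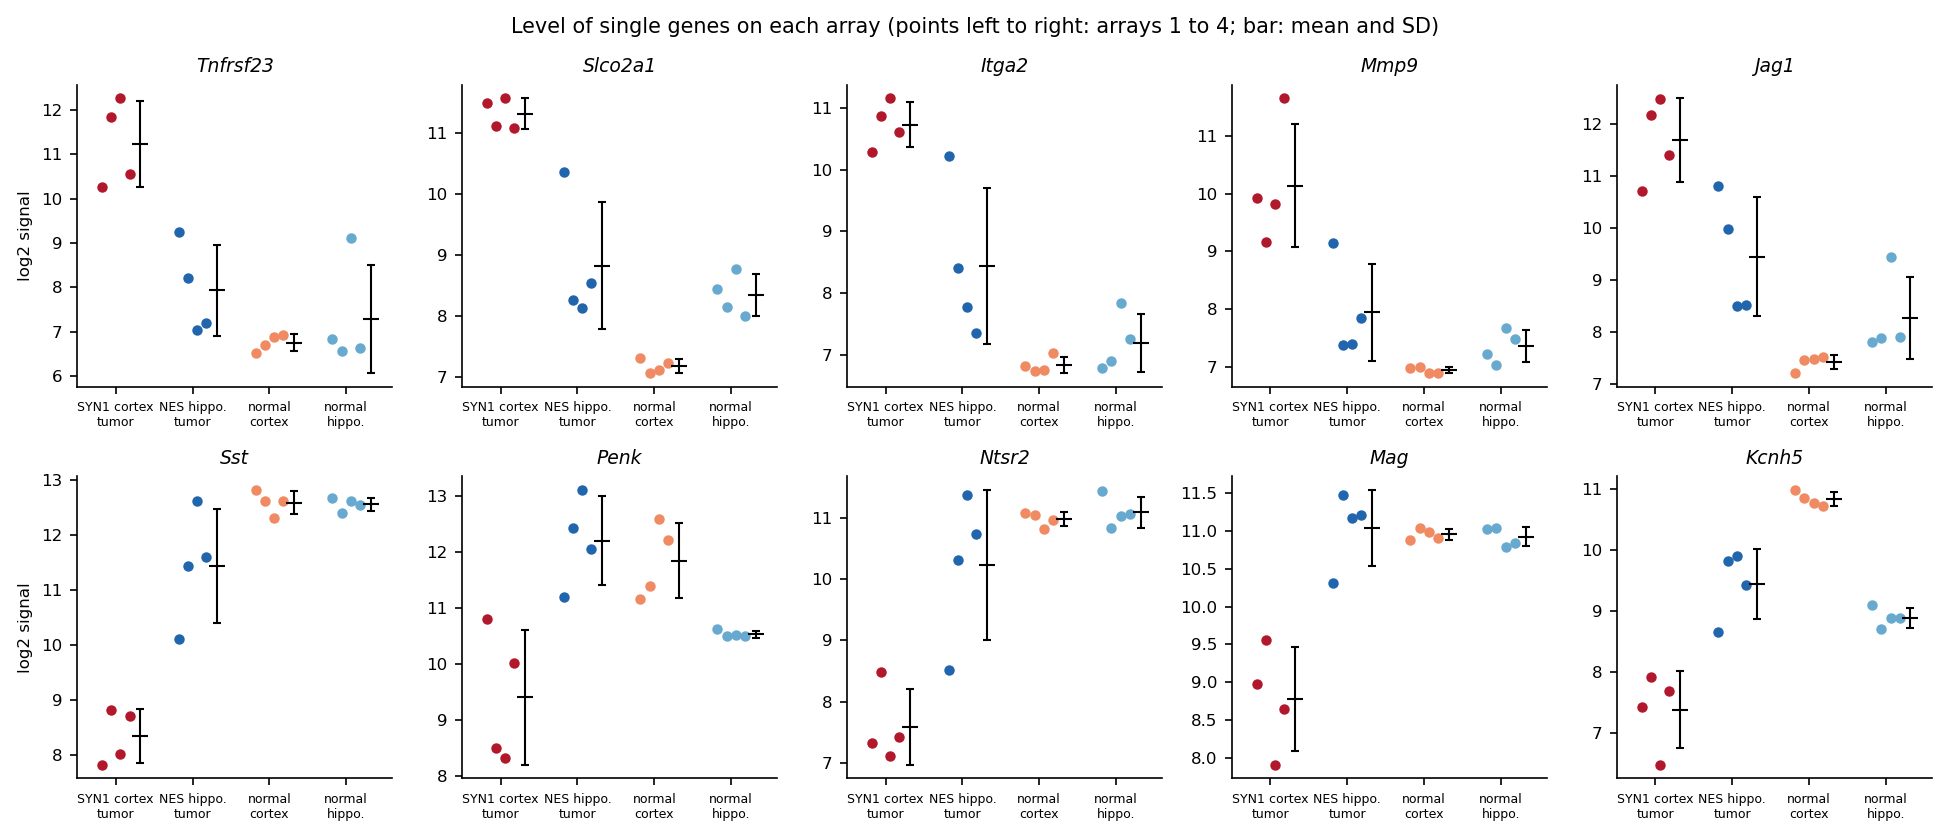
Log2 signal of 10 genes on each array in SYN1 cortex tumors, NES hippocampus tumors, normal cortex and normal hippocampus (points, arrays 1 to 4 from left to right; bars, mean and SD of 4 arrays; the vertical axes do not start at 0). The upper genes are higher in SYN1 tumors with NES tumor 1 the nearest NES tumor, and Tnfrsf23 and Jag1 are high in normal hippocampus 3. The lower genes are lower in SYN1 tumors, and Penk in NES tumors exceeds normal hippocampus.

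The promoters of the largest difference in each direction, Tnfrsf23 and Sst, and of Dhrs9 are shown as 250 bases upstream of the RefSeq transcript start (GRCm38.p6, minus strand for Tnfrsf23 and Sst, plus strand for Dhrs9), written 5′ to 3′. Capitals mark matches, on either strand, to the cAMP response element TGACGTCA or the AP-1 element TGANTCA. These motifs were chosen after the values were seen.
Tnfrsf23, chr7:143685876-143686125: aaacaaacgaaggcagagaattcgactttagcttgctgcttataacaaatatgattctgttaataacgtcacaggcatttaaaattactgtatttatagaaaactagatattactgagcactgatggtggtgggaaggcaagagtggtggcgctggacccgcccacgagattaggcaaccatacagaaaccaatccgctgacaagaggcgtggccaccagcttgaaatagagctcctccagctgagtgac
Dhrs9, chr2:69380212-69380461: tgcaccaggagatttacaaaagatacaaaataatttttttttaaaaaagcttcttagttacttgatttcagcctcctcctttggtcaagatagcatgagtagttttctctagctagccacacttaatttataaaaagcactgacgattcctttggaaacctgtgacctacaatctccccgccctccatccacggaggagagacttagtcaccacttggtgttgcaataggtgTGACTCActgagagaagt
Sst, chr16:23890845-23891094: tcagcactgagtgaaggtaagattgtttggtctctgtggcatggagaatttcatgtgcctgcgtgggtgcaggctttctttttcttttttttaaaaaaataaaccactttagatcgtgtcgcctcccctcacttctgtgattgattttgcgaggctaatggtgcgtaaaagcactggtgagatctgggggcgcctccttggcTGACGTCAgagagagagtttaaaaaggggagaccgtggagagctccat
The Sst promoter holds the cAMP response element, its first base 48 before the start (-48), for which this gene is a classic example, and Dhrs9 holds an AP-1 match at -18. No match to either lies in the Tnfrsf23 window. Among the genes named above as higher, 6 of 12 had a promoter in the table, with 1 AP-1 match and 0 cAMP element matches, and among those named as lower 7 of 12 had one, with 0 and 1. Of 32851 promoters in the table, 508 hold the cAMP element (1.55%) and 2217 the AP-1 element (6.75%). Nothing in the arrays measured binding to these sites.

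Most general neuron and synapse genes were lower in SYN1 tumors, against 8.51% called lower over all genes. Of 18 general neuron markers, 12 were lower and 0 higher, with a median difference of -1.71 against 0.01 over all genes (15 lower without NES tumor 1). Snap25, a core protein of vesicle fusion, had 10.95, 11.36, 9.77 and 11.11 in SYN1 tumors and 12.29, 13.2, 13.52 and 12.83 in NES tumors, a gap without overlap (-2.16 ± 0.369, limma adjusted p = 0.0254). Slc17a7, the vesicular transporter of excitatory neurons, differed by -2.28, and Gad2, the enzyme that makes GABA in inhibitory neurons, by -2.21. Stmn2 and Nefm, which encode a growth cone protein and a neurofilament, were not called (-0.33 and -0.68). The 18 markers averaged 8.47 to 9.4 in SYN1 tumors, 9.95 to 11.29 in NES tumors, 11.37 to 11.56 in normal cortex and 11.05 to 11.32 in normal hippocampus.

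Of 16 genes of vesicle release, 14 were lower and 0 higher (median -1.77), among them Sv2b (-2.55), Cplx1 (-2.53) and Syp (-2.33), all proteins of synaptic vesicles or their fusion. Of 16 genes of glutamate receptors and the postsynaptic scaffold, 12 were lower (median -1.89), with Grin2b, an NMDA receptor subunit, at -2.43 and Gria2, an AMPA receptor subunit, at -2.28. Of 9 GABA-A receptor genes, 6 were lower (median -2.16), led by Gabra4 and Gabrb2 (-2.5). Without NES tumor 1 the counts were 15, 13 and 8. In the 13 interneuron genes, 3 were lower (7 without NES tumor 1), namely Sst, Calb2 (-2.15) and Pvalb (-1.67), which encode a peptide and calcium-binding proteins of separate interneuron classes, whereas Npy (-0.02) and Lhx6 (-0.07) were not called. Pvalb ran against the normal regions, where cortex was 0.9 higher. Calb2 ran with them, being lower in normal cortex with normal cortex 1 and 2 only (-1.2, limma adjusted p = 6.29e-06). Its excess over that regional difference was not called (-0.95, limma adjusted p = 0.507).

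Most oligodendrocyte and astrocyte genes were lower too, against 8.51% called lower over all genes. All 14 oligodendrocyte genes were lower in SYN1 tumors (median -1.76), with and without NES tumor 1, from Fa2h, the enzyme that hydroxylates myelin lipids (-2.4), to Nkx6-2, a transcription factor (-0.7). Mag, a myelin adhesion protein, had 8.98, 9.56, 7.91 and 8.64 in SYN1 tumors, against 10.31, 11.47, 11.17 and 11.21 in NES tumors, and the 8 normal arrays lay at 10.79 to 11.04. NES tumors 2 to 4 thus had Mag above every normal array, and SYN1 tumors below (SYN1 minus NES -2.27 ± 0.358, limma adjusted p = 0.0254). The list averaged 7.58 to 8.66 in SYN1 tumors and 9.16, 10.14, 10.3 and 10.19 in NES tumors. Of 16 astrocyte genes, 12 were lower (median -1.5), with the glutamate transporter Slc1a2 at -2.01 and the water channel Aqp4 at -1.74, whereas Gja1 (-0.14) and Sox9 (0.2) were not called. With the spread taken from all 30 arrays, 6 of these 12 were called.

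Of 16 oligodendrocyte precursor and proneural genes, 7 were lower and 0 higher (median -1.13), against 8.51% and 3.33% over all genes. There were 8 lower without NES tumor 1 and 2 higher, Sox4, a transcription factor (1.11, limma adjusted p = 0.00088), and the Notch ligand Dll1 (0.71, 0.0114). The called genes included Olig1 (-1.93) and Olig2 (-1.64), transcription factors of the lineage, and Gpr17 (-1.64) and Sox10 (-0.85). Olig2 had 8.49, 7.86, 6.79 and 8.13 in SYN1 tumors, against 8.96, 9.09, 10.01 and 9.78 in NES tumors, without overlap. Pdgfra, the growth factor receptor of the precursors, was not called (-0.35, limma adjusted p = 0.683). Neural stem and progenitor genes showed no common direction: 2 of 14 were lower, Msi1 (-1.22) and Nr2e1 (-1.13), and 1 was higher, Hes1 (0.76). Without NES tumor 1, 5 were higher and 2 lower.

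**Figure D4:**
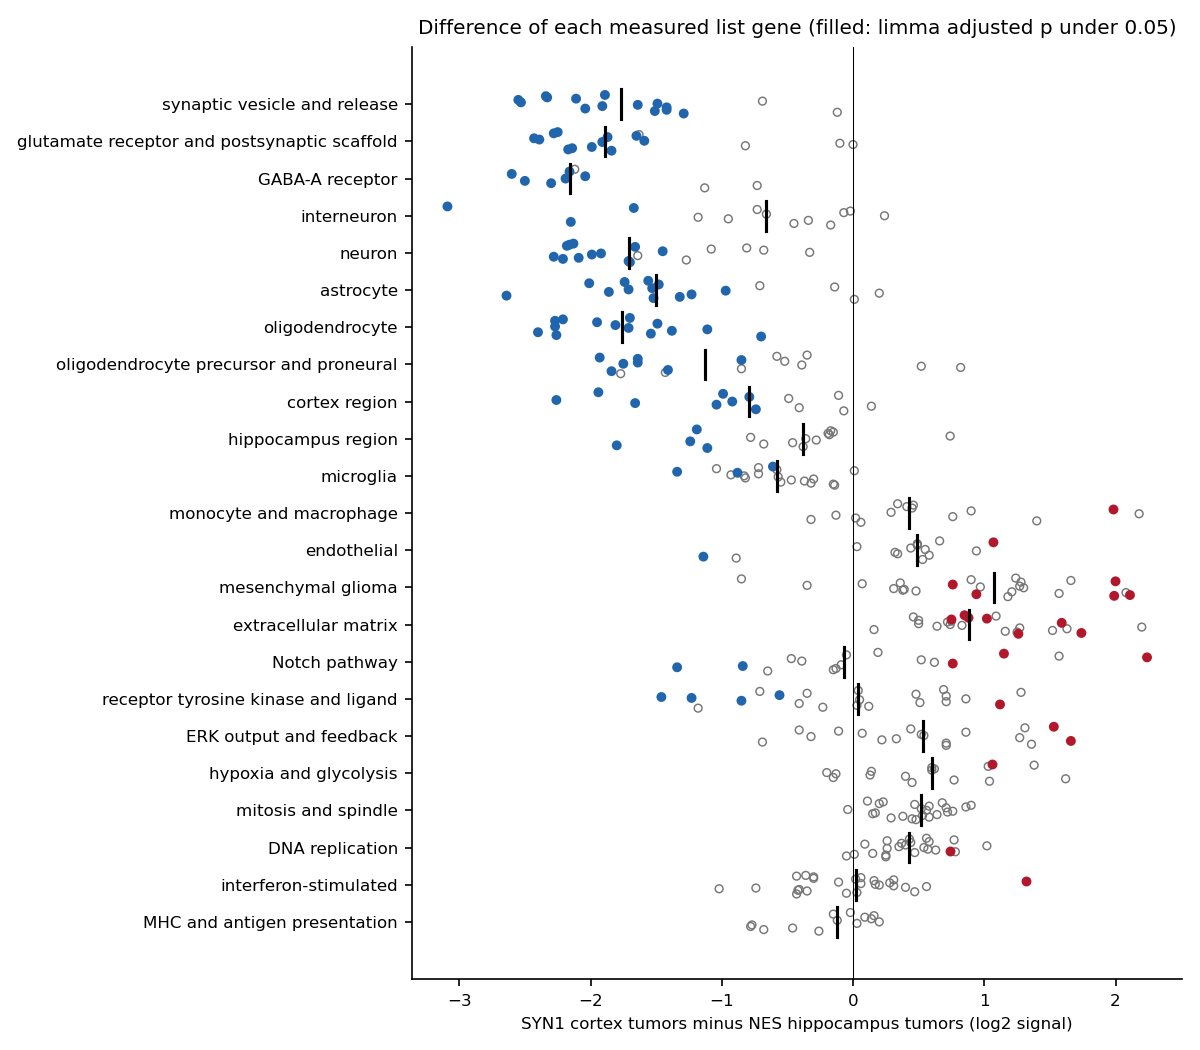
Log2 difference of SYN1 cortex tumors minus NES hippocampus tumors for each measured gene of 23 lists (points), with the median of the list (black bar). Filled points passed limma's adjusted p of 0.05, blue where lower and red where higher in SYN1 tumors. Synapse, neuron, astrocyte and oligodendrocyte genes lie to the left of 0, mesenchymal and matrix genes mostly to the right, and interferon genes on both sides.

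Genes typical of cortex did not keep the order of the normal regions. Of 13 genes typical of cortex, 8 were lower in SYN1 tumors although these lay in cortex, and 0 were higher (median -0.79), while 9 were higher in normal cortex than in normal hippocampus (median 0.93). Mef2c, a transcription factor of cortical neurons, was 1.66 lower in SYN1 tumors (-1.66, limma adjusted p = 0.0254) and 1.46 higher in normal cortex. Tbr1, a transcription factor of deep-layer neurons, had 6.3, 7.48, 6.72 and 6.85 in SYN1 tumors and 7.39, 9.39, 9.15 and 9.16 in NES tumors, where only SYN1 tumor 2 and NES tumor 1 overlapped. Of 15 genes typical of hippocampus, 4 were lower in SYN1 tumors and 0 higher (median -0.38), against 13 lower in normal cortex (median -1.99). Cabp7 (-1.24), Prox1 (-1.19) and Grik4 (-1.11) ran in the direction of the normal regions (-2.78, -2.09 and -0.78 there), whereas Mpped1 (-1.8) had a normal difference of 0.2 (limma adjusted p = 0.279). Without NES tumor 1, 10 cortex genes and 5 hippocampus genes were lower. Over all genes and with all 8 tumor arrays, 8.51% were called lower in SYN1 tumors.

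The 6 genes with the largest difference towards normal cortex were Dkkl1, Myl4, Lamp5, Cckbr, Rasgef1b and Scn4b, between 2.06 and 2.83 higher there. Between the tumors, 4 of the 6 were called lower in SYN1 tumors, among them Cckbr, a cholecystokinin receptor, at -1.31 and Dkkl1 at -0.92. Scn4b, a sodium channel subunit, missed the threshold (-2.34, limma adjusted p = 0.0503), as did Myl4 (-0.8, 0.155). Toward normal hippocampus the 6 largest were Ndst4, Shisa6, Syna, Npy2r, Cabp7 and Slc9a4 (-3.3 to -2.66). Ndst4, a heparan sulfate enzyme, and Cabp7, a calcium-binding protein, were also lower in SYN1 tumors (-2.16 and -1.24). Syna, the gene of the fusion protein syncytin A, had 6.68 to 6.89 in SYN1 tumors and 6.72 to 7.36 in NES tumors, overlapping values with a difference of -0.12 (limma adjusted p = 0.664), against -3.01 between the normal regions. NES tumors minus normal hippocampus gave -3.0 for Syna and -2.45 for the exchanger Slc9a4.

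Departures from the regional difference were ranked among genes called between the tumors whose SYN1 and NES arrays did not overlap. The 8 most negative were Penk, Dpp10, Kcnh5, Rgs4, Zdhhc22, Tmem196, Dkkl1 and Cpne5 (-4.1 to -3.73). Kcnh5, a voltage-gated potassium channel, had 7.43, 7.92, 6.49 and 7.7 in SYN1 tumors and 8.65, 9.81, 9.89 and 9.42 in NES tumors, and in the normal tissues the order was turned, with 10.71 to 10.98 in cortex and 8.7 to 9.1 in hippocampus. The tumor difference was -2.06 ± 0.356, the regional difference 1.94, and the departure -3.99 (limma adjusted p = 2.31e-05). Dpp10, an auxiliary subunit of potassium channels, showed -2.32 and 1.69 in the same order. The 8 most positive by the same rule were Tnfrsf23, Slco2a1, Tnfrsf22, Ccbe1, Dhrs9, Prokr2, Gpr149 and Itga2 (3.84 to 2.64). Prokr2, a prokineticin receptor, had 9.7, 10.18, 10.72 and 9.55 in SYN1 tumors and 8.95, 8.46, 8.31 and 8.19 in NES tumors, without overlap, and was 1.26 lower in normal cortex (-1.26, limma adjusted p = 3e-07). Lamp5 (-4.49) and Jag1 (3.08), called between the tumors but with overlapping arrays, departed further than the first and the last of these, and were not ranked. All 16 were called without normal hippocampus 3 and with normal cortex 1 and 2 only. With normal cortex 1 and 2 only, the order changed. Penk then had the least negative departure of the 8 (-3.54), and the others ran from -4.14 for Dpp10 to -3.68 for Cpne5.

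A minority of the mesenchymal glioma and matrix genes passed the test, all of them higher in SYN1 tumors, against 3.33% called higher over all genes. Of 24 mesenchymal genes, 5 were higher, 0 lower and 19 not called (median 1.07). Without NES tumor 1, 19 were higher, against 2030 of 19938 over all genes in that fit. The 5 were S100a6 (2.11), a calcium-binding protein, Plaur (2.0), the urokinase receptor, Itga5 (1.99), the fibronectin receptor subunit, S100a4 (0.94) and Cebpb (0.76), a transcription factor of the mesenchymal class. Plaur had 10.65, 10.88, 11.41 and 10.84 in SYN1 tumors and 10.46, 9.18, 7.96 and 8.2 in NES tumors, with NES tumor 1 just under the SYN1 range. Cd44, the hyaluronan receptor, differed by 1.24 and was not called (limma adjusted p = 0.0527), nor was Anxa1 (2.08, 0.0544). Chil1 ran the other way without passing (-0.85). Of 23 matrix genes, all had positive differences, 7 were called higher and 16 were not called (median 0.88, 15 higher without NES tumor 1). Lamb1, the beta-1 chain of laminins, had 11.18, 10.59, 11.06 and 11.06 in SYN1 tumors and 10.44, 9.28, 8.56 and 8.64 in NES tumors (1.74 ± 0.378, limma adjusted p = 0.0268). Col6a3 (1.59), Lamc1 (1.26) and the basement membrane collagens Col4a2 (1.02) and Col4a1 (0.88) were also higher, with Col1a1 (0.85) and Col5a1 (0.75). Thbs1, thrombospondin 1, was not called (2.2, limma adjusted p = 0.083).

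Beside these lists stand the markers of the other cells that share their genes. Over all genes, 3.33% were called higher and 8.51% lower in SYN1 tumors. Mural cell and fibroblast genes, 13 measured, had 0 calls in limma, and 0 at unadjusted p under 0.05, and averaged 7.86 to 8.68 in SYN1 tumors and 7.8 to 8.72 in NES tumors, overlapping ranges. Of 14 endothelial genes, 1 was higher, Cdh5 (1.07), the cadherin of vessel junctions, and 1 lower, Slco1a4 (-1.14), a transporter of the blood-brain barrier (8 and 2 without NES tumor 1). Of 14 monocyte and macrophage genes, 1 was higher, Mrc1, the mannose receptor of tissue macrophages. Mrc1 had 9.83, 9.48, 9.65 and 9.68 in SYN1 tumors and 8.74, 7.85, 7.12 and 7.02 in NES tumors, without overlap (1.98 ± 0.341, limma adjusted p = 0.0254). Arg1, an arginase of wound macrophages, was not called (2.18, limma adjusted p = 0.0576). Leaving out NES tumor 1, 4 of the 14 were higher, with Arg1 (2.74, limma adjusted p = 0.00396), the scavenger receptor Msr1 (1.97, 0.0182) and F13a1 (1.08, 0.0186), the A subunit of coagulation factor XIII, called beside Mrc1. Of 19 microglia genes, 3 were lower, Siglech (-1.34), Gpr34 (-0.88) and P2ry12 (-0.61), and the others were not called. The part of these cells in the mesenchymal and matrix differences was not tested.

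Signalling genes were called in both directions, against 3.33% called higher and 8.51% called lower over all genes. In the Notch pathway, 3 of 16 genes were higher and 2 lower (6 and 4 without NES tumor 1). Jag1, a ligand of Notch receptors, had 10.71, 12.18, 12.49 and 11.4 in SYN1 tumors, against 10.8, 9.99, 8.5 and 8.51 in NES tumors, where SYN1 tumor 1 and NES tumor 1 overlapped (2.24 ± 0.572, limma adjusted p = 0.0375). The receptor Notch2 (1.15) and the target Hes1 (0.76) were higher as well, whereas the targets Hey2 (-1.34) and Hey1 (-0.84) were lower. Among 21 receptor tyrosine kinases and ligands, Pdgfc, a ligand of the PDGF receptors, was higher (1.12), and Fgfr2 (-1.46), Fgfr3 (-1.23), Tgfa (-0.85), a ligand of EGFR, and Kit (-0.56) were lower. Kit and Tgfa were also lower in normal cortex with normal cortex 1 and 2 only (-1.03 and -0.45, limma adjusted p = 2.85e-05 and 0.0328). Egfr and Met were not called (0.69 and 1.28, limma adjusted p = 0.122 and 0.0682). In the fit without NES tumor 1, 7 of the 21 were higher and 5 lower, and both Egfr (0.97, limma adjusted p = 0.00278) and Met (1.72, 0.000693) were called. Of 18 genes of ERK output, 2 were higher, the phosphatase Dusp4 (1.53) and the early response gene Ier3 (1.66), and 10 without NES tumor 1. Vegfa, the vessel growth factor, was the called gene of 16 for hypoxia and glycolysis (1.06, 8 higher without NES tumor 1).

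Few genes of cell division, interferon response and antigen presentation passed the test. Of 23 mitosis genes 0 were called in limma (3 higher at unadjusted p under 0.05, median 0.52), with Mki67 at 0.11 (limma adjusted p = 0.868), and 1 of 23 DNA replication genes was higher, Chaf1a (0.74), a subunit of a histone chaperone. Without NES tumor 1, 3 and 7 were higher, against 2030 of 19938 over all genes in that fit. SYN1 tumors 1 and 4 had the highest mitosis levels of the 8 tumors (9.5 and 9.79), and SYN1 tumor 3 the lowest (8.29), so that the spread lay within the groups. Of 26 interferon-stimulated genes, 1 was higher, Oasl1 (1.32), and Cxcl10 differed by -1.02 without passing (limma adjusted p = 0.422). In limma 0 of 13 antigen presentation genes and 0 of 15 T and NK cell genes were called (3 and 2 lower at unadjusted p under 0.05), and 0 of 2 red blood cell genes at either threshold. Single genes were called in the lists of p53 targets (Fas, -0.57), ependymal and choroid cells (Enkur, -0.61), immediate early genes (Nr4a3, -1.31), B cells and neutrophils (S100a8, 1.41) and skeletal muscle (Chrna1, 1.81), which hold 17, 13, 14, 8 and 12 measured genes, against 11.8% called over all genes. Without NES tumor 1, 3 p53 targets were higher and 1 lower, with Fas no longer called (-0.51, limma adjusted p = 0.0582), 3 immediate early genes were higher and 2 lower, and the other 3 lists kept a count of 1. Nr4a3 was also lower in normal cortex with normal cortex 1 and 2 only (-0.73, limma adjusted p = 0.0181). Chrna1, a muscle acetylcholine receptor subunit, stood at 10.87 to 12.02 in SYN1 tumors and 8.78 to 10.97 in NES tumors, while the muscle genes Ckm, Myod1 and Acta1 differed by 0.01 to 0.14 and were not called.

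Neither promoter gene was called higher in the tumors named for it. Syn1 had 9.29, 9.75, 9.14 and 9.54 in SYN1 tumors, against 10.28, 11.5, 11.8 and 11.71 in NES tumors, so it was lower, without overlap, in the tumors named for it (-1.89 ± 0.321, limma adjusted p = 0.0254). Its normal regional difference was 0.4. Nes had 11.04, 10.55, 10.75 and 11.19 in SYN1 tumors and 11.53, 10, 9.08 and 9.04 in NES tumors, with NES tumor 1 the highest of all, and was not called (0.97, limma adjusted p = 0.238; 1.51 and 0.00297 without NES tumor 1). Gfap, the astrocyte filament, was lower in SYN1 tumors (-1.56 ± 0.297, limma adjusted p = 0.0254) and lower in normal cortex (-1.01), and its departure from the regional difference was not called (-0.55, limma adjusted p = 0.335). Of common glioma suppressor genes, Cdkn2a (1.02, limma adjusted p = 0.0718), Rb1 (-0.69, 0.0822) and Nf1 (-0.23, 0.459) were not called. Cdkn2a was called without NES tumor 1 (1.35, limma adjusted p = 0.00233), and the other two were not. These probes measure the native mouse genes and do not report on the Cre constructs.

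Set against the normal tissue of their regions, as values without a test, the neuron list had a median difference of -2.52 in SYN1 tumors and -0.47 in NES tumors, the oligodendrocyte list -2.18 and -0.18, and the astrocyte list -1.36 and 0.03. The mesenchymal list stood at 2.8 in SYN1 tumors and 1.77 in NES tumors, and the interferon list at 2.09 and 2.11. Tumors of a single promoter in both regions offer a further comparison: in GFAP cortex tumors minus GFAP hippocampus tumors, with 4 and 7 arrays, the median difference was -0.07 for the neuron list, -0.38 for the oligodendrocyte list and -0.07 for the mesenchymal list. Without GFAP cortex tumor 1 and GFAP hippocampus tumors 5 to 7, the 4 arrays left out of the 26-array fit, these were 0.54, 0.21 and -0.59, opposite in sign to SYN1 minus NES tumors. By mean correlation with their group, GFAP cortex tumor 1 (0.868) and GFAP hippocampus tumor 5 (0.889) were the lowest of the 11, whereas GFAP hippocampus tumors 6 and 7 (0.941 and 0.938) lay within the range of the arrays kept (0.925 to 0.948). Without those lowest 2 alone, a choice made after the data were seen, the medians were 0.63, 0.24 and -0.3. For Sst the GFAP difference was 0.34, for Mmp9 0.61 and for Tnfrsf23 -0.51, against -3.09, 2.19 and 3.31 in SYN1 minus NES tumors. Whether these regional differences depend on the promoter was not tested.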

How the data were processed

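Total RNA, extracted with Trizol per the labels' protocols, was labelled and hybridised to Affymetrix Mouse Gene 1.0 ST arrays. The deposited values are log2 signals, 1 per probe set and array. Affymetrix Power Tools, MAS5 and RMA are named in the submitters' processing notes, with no versions, and how arrays were normalized to each other is not given in the sources used here. They were used as deposited. The table held 35556 probe sets. Of these, 21789 named 1 gene symbol, 1621 several and 12146 none, and 21698 matched RefSeq of GRCm38.p6 (999 genes had more than 1 probe set, and the brightest on average over the 30 arrays was kept), which left 19938 genes.

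Group means were fitted with limma 3.58.1 (R 4.3.3) to the 8 tumor arrays, to the 8 normal arrays and, for the difference of differences, to all 16, and p-values were adjusted by Benjamini-Hochberg over all genes. Errors are standard errors of limma. The fit between the tumors was tested on simulated data with independent noise for each gene, which cannot speak for variation shared across an array. The other fits were not simulated. Genes were named where they were among the 12 largest called differences each way between the tumors without overlap, the 8 largest departures from the regional difference among those calls, the 6 largest regional differences, members of the 33 lists (493 of 538 genes measured), or promoter and suppressor genes. Predicted genes were not named, and some genes are not analysed here. Members, lists and tests were chosen with earlier results of these data known. Gene roles are general background. Alternatives are given in the closing section. The number of arrays limits the precision.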

Additional observations from a re-analysis of the deposited data

Results flagged for a closer look

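Of 336 sets of 4 arrays examined (list means and named genes in each of the 4 groups), 25 had an array far from its nearest neighbour relative to the whole range of the set. Chance gives such an array in about 1 in 20 sets. NES tumor 1 was the array in 5, with mean log2 levels of 9.16 for oligodendrocyte genes (low), 9.13 for mitosis genes and 10.42 for ERK output genes (high), and with Mal2 at 9.72 and Scn4b at 6.48 (low). SYN1 tumor 3 was low in neuron genes (8.47) and GABA-A receptor genes (6.95). NES tumor 2 was high in immediate early genes (9.13), NES tumor 3 in Nf1 (11.13) and NES tumor 4 in Slc9a4 (7.39), and SYN1 tumor 1 was low in Syna (6.68).

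Normal hippocampus 3 was the array in 6 sets, high in Tnfrsf23 (9.11), Tnfrsf22 (8.54), Dhrs9 (7.78), Pla1a (7.74) and Fbln2 (9.08), all genes higher in SYN1 tumors, and low in Dkkl1 (6.75). Normal hippocampus 1 was high in oligodendrocyte precursor genes (8.85) and Penk (10.63), normal hippocampus 2 low in Elmod1 (12), and normal hippocampus 4 low in Prokr2 (8.06). Normal hippocampus 2 also met the rule for interneuron genes (9.01, against 9.05 in the others). The rule used rounded means, which made these ties, so no difference is read from it. Normal cortex 1 was high in synaptic vesicle genes (11.51), normal cortex 2 in immediate early genes (10.14), and normal cortex 3 was low in antigen presentation genes (7.61).

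The SYN1 minus NES difference departed from the normal cortex minus hippocampus difference, at a limma adjusted p under 0.05 for the interaction, in 44 of the 50 genes named by size or as promoter and suppressor genes. Over all genes it did so in 3805 of 19938 (19.1%). Most of the 50 were named for a large tumor difference, regional difference or departure. These values enter the departure itself, so a high count was built in. Positive departures were 3.84 for Tnfrsf23, 3.29 for Tnfrsf22, 2.92 for Dhrs9, 3.65 for Slco2a1, 2.57 for Prl8a9, 2.63 for Dpep2, 2.64 for Itga2, 2.55 for Pla1a, 2.61 for Mmp9, 2.56 for Fbln2, 3.26 for Ccbe1, 2.82 for Prokr2, 2.76 for Gpr149 and 1.09 for Cdkn2a. The hippocampal genes also had positive ones, 2.21 for Shisa6, 2.89 for Syna, 1.94 for Npy2r, 1.54 for Cabp7 and 2.58 for Slc9a4. Negative departures were -3.13 for Sst, -4.1 for Penk, -3.37 for Gnal, -2.98 for Spock3, -2.84 for Tmem130, -2.85 for Ano3, -2.45 for Rab3c, -2.77 for Mal2, -2.52 for Ntsr2, -2.51 for Neto1, -2.69 for Elmod1, -2.88 for Gabra4 and -2.29 for Syn1. Further negative departures were -4.01 for Dpp10, -3.99 for Kcnh5, -3.91 for Rgs4, -3.78 for Zdhhc22, -3.75 for Tmem196 and for Dkkl1, -3.73 for Cpne5, -3.2 for Myl4, -4.49 for Lamp5, -3.47 for Cckbr, -3.58 for Rasgef1b and -4.4 for Scn4b.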

How the results depend on the processing

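The count of calls between SYN1 and NES tumors (2361, with 664 higher and 1697 lower) ran from 0 to 4927 when each array was left out (0 to 2030 higher, 0 to 2897 lower), and from 3660 to 6718 in the 26-array fit (1200 to 2988 higher, 2141 to 3730 lower), an alternative chosen after the data were seen. It was 2789 with the spread of all 30 arrays (864 higher, 1925 lower) and 5296 with the spread of 26 arrays (2169 higher, 3127 lower). It was 3785 after quantile normalization (1815 higher), 5336 with array weights (2158 and 3178), and 1484 at a log2 difference of at least 1 (286 higher). Median centring gave 1759 higher. At adjusted p under 0.01 there were 0 (2361 at 0.05, 5669 at unadjusted p under 0.05). With the replicate number as a block 0 genes were called (0 higher, 0 lower, 5110 at unadjusted p under 0.05). Same-numbered SYN1 and NES residuals correlated at 0.071, 0.172, -0.219 and -0.361, and other-numbered ones at -0.548 to 0.482. Residuals sum to 0 within each group of 4 arrays, so these values cannot decide whether the numbers pair the samples.

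Calls between normal cortex and hippocampus (2768) were 257 with the spread of all 30 arrays (145 higher, 112 lower), 494 with 26 (300 and 194), 1761 at adjusted p under 0.01 (1141 and 620), 277 at a log2 difference of at least 1 (160 and 117) and 1769 with normal cortex 1 and 2 only (575 lower, chosen after the data were seen). Quantile normalization gave 1571 lower, and its calls were 52.8% higher in cortex, against 64.6%. Leaving out each array gave 2261 to 2734.

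Calls for the difference of differences (3805) were 769 with 30 arrays (149 and 620), 6209 with array weights (2722 positive), 1801 at adjusted p under 0.01 (366 and 1435), 2133 at a log2 difference of at least 1 (508 and 1625), 2075 with normal cortex 1 and 2 only (407 and 1668) and 2961 to 5838 with each array left out (763 to 2357 positive, 2119 to 3481 negative). Positive calls were 2444 after median centring and 2642 after quantile normalization, or 53.1% and 51.1% of calls, against 31.5%. Between SYN1 and NES tumors, no named gene changed sign while called in any alternative run. Runs that altered only the spread or the threshold could not change a sign. For the normal regions and the difference of differences, only counts were compared across runs, not the signs of genes. The causes were not tested.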

Other observations

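The striatal genes, listed after the values were seen and given without a test, shared a pattern over the arrays. Tac1, the precursor of substance P, had 8.31, 6.54, 5.59 and 5.32 log2 signal in SYN1 tumors and 7.22, 9.45, 10.78 and 9.11 in NES tumors, against 7.88, 7.88, 9.33 and 8.91 in normal cortex and 7.3 to 7.73 in normal hippocampus. Ppp1r1b, the dopamine-regulated phosphatase inhibitor of projection neurons, had 7.09 to 7.67 in SYN1 tumors and 7.41, 10.24, 11.04 and 9.7 in NES tumors, against 9.71, 9.33, 10.53 and 10.23 in normal cortex and 8.51 to 8.77 in normal hippocampus. For both genes NES tumors 2 to 4 exceeded all normal hippocampi and NES tumor 1 did not, and NES tumor 3 was the highest of the 16 arrays. Where the tissue of these arrays was dissected was not tested.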
